A study of Homo sapiens with 18 samples.

Results

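Cells of the human embryonic kidney line HEK293T, which takes up plasmids readily, were transfected with Methionase_NLS or with the empty pLEX vector, and their poly-A RNA was sequenced. The results below compare these groups at 24 h of transfection in the vehicle DMSO, with 3 libraries per group and 6 of the 18 libraries of the series, taken by their labels and read across all expressed genes. The genotype of the cells was labelled as wild type in both groups, and neither group received the lipid kinase inhibitor Vps34-IN1. The remaining 12 libraries held the same 2 constructs at 12 h in DMSO, and at 24 h with 5 µM Vps34-IN1 for 12 h. They entered the estimate of the spread, and the 12 h groups served to ask whether a difference depended on time. Methionase carried a nuclear localisation signal. No group received an inactive methionase or another nuclear protein, so enzyme activity and expression of a foreign protein cannot be told apart. Methionase is not a human gene, and its own transcript was not analysed here. The labels give neither the promoter of the construct nor the share of cells that took it up, and whether replicates were grown as separate cultures is not given either. The p-values therefore refer to the variation among these libraries, part or all of which may be technical.

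Methionase splits the amino acid methionine. Methionine starts most proteins and, as S-adenosylmethionine, donates methyl groups to DNA, histones and RNA and a propylamine group to polyamines; the homocysteine that remains is remade into methionine with folate-bound carbon or passed on to cysteine and glutathione. Cells answer a shortage of amino acids through the kinase GCN2 and the transcription factor ATF4, and unfolded protein in the endoplasmic reticulum (ER) through the sensors PERK, IRE1 and ATF6, while AP-1 genes such as JUN and FOS respond within a short time to many kinds of stress.

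The 6 libraries held 18850736 to 20825232 reads assigned to genes. Values per library are given as normalised reads, which are reads divided by the size factor of the library. Differences are methionase minus empty vector on the deposited log2 scale with their standard error (SE), from limma. On that scale the change of a gene with few reads comes out too small. A gene was called at an adjusted p below 0.05 over 17755 tested genes. All 7 genes of a marker list for the HEK293 line were detected, and their summed level was 13298 to 14631 normalised reads with the vector and 17367 to 24506 with methionase. Most of that gap came from NEFM, with means of 7507 and 14382 normalised reads, while those of INA were 1047 and 808 and those of DACH1 945 and 644. The keratin genes KRT5 and KRT14 were at 0 in all 6 libraries, and 3 endothelial markers summed to at most 5.08. The leukocyte markers CD3E and LYZ reached at most 2.13 normalised reads, and the hepatocyte markers ALB and APOA1 summed to 3.64 to 3.72 with the vector and 10.7 to 26.4 with methionase. The part of these markers in the results was not tested. The 3 fibroblast markers summed to 485 to 602 with the vector and 568 to 685 with methionase, nearly all from COL1A1. In bulk RNA, fewer cells that express a gene and less of its RNA per cell cannot be told apart.

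Promoters of some ER chaperone and linker histone genes are shown for a motif that each set holds. In the ER chaperone genes this is the ER stress response element, the letters CCAAT, then any 9 bases, then CCACG, on either strand, a known site of ATF6 and the CCAAT-binding factor NF-Y. In linker histone genes it is the H1 box, AAACACAA on either strand. The sequences are the RefSeq promoters of GRCh38.p14, from the distance needed to show the motif up to the last base before the start site, read 5′ to 3′ along the gene. Capitals mark the motif, and no match of one motif overlapped the other in the bases shown. HSPA5 lies at chr9:125241344-125241473 (minus strand), HSP90B1 at chr12:103930210-103930409 (plus), CANX at chr5:179698769-179698928 (plus, before a start site inside the gene's span), CRELD2 at chr22:49918504-49918633 (plus), H1-2 at chr6:26056471-26056610 (minus), H1-4 at chr6:26156189-26156328 (plus) and H1-5 at chr6:27867589-27867728 (minus).
HSPA5: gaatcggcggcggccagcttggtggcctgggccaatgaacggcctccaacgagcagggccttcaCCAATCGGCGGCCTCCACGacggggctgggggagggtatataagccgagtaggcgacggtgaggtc
HSP90B1: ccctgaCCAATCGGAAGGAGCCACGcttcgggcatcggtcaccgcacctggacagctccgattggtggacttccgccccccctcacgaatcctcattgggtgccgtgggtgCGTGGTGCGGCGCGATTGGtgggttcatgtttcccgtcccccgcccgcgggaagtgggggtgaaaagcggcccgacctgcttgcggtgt
CANX: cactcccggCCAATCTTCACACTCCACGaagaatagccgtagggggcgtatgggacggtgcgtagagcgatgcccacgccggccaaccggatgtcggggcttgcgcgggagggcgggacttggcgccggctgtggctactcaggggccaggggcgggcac
CRELD2: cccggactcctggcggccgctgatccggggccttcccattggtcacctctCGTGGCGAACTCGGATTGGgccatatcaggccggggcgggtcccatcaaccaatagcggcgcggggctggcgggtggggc
H1-2: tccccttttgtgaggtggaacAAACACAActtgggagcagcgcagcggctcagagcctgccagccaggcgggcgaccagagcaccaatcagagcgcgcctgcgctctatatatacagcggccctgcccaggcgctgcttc
H1-4: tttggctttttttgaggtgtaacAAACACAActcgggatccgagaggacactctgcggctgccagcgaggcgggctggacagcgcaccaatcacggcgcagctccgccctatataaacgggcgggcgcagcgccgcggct
H1-5: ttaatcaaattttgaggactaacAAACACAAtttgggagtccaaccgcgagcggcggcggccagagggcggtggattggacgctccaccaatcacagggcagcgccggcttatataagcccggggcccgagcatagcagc

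The ER stress response element was found in 22 of 27305 promoters (0.0806%) and in 6 of 27 searched promoters of ER chaperones and foldases, those of HSPA5, HSP90B1, CALR, ERO1B, CANX and CRELD2. In HSPA5 its first letter lay 66 bases before the start site, and HSP90B1 held 2 matches, at 194 and 89 bases. Over all tested genes whose promoter holds the element, 6 of 16 rose and 3 fell, with a median of 0.11. These 16 include the 6 genes just named, of which 4 rose and none fell. Of all 29 tested ER chaperones and foldases, 12 rose and 3 fell. HSPA5, HSP90B1, CALR and ERO1B rose, and CANX and CRELD2 were not called, with log2 differences of 0.07 ± 0.08 and -0.12 ± 0.08. CRELD2 was called without methionase replicate 3, at -0.23, and ERO1B was not called without methionase replicate 2 (0.19) or 3 (0.18) or without vector replicate 1 (0.21) or 3 (0.18). The H1 box was found in 365 promoters (1.34%) and in 3 of 33 searched promoters of replication-dependent histones, those of H1-2, H1-4 and H1-5, at 119, 117 and 117 bases in the stretches shown; H1-2 and H1-5 held another match farther upstream. All 3 rose; over all tested genes with the box, 25 of 95 rose and 22 fell, with a median of -0.01. The cAMP response element was found in 5 of the 33 histone promoters, of which 4 rose, and over all tested genes with it 71 of 360 rose and 92 fell. Among all tested histones 30 of 34 rose, so a rise was not particular to those with either motif. H1-5 rested on 7.44 to 10.9 normalised reads with the vector and 16.2 to 24.6 with methionase, and its difference of 0.30 was not called without methionase replicate 1 (limma, adjusted p = 0.0614), without vector replicate 2 (adjusted p = 0.0596) or with quantile normalization (adjusted p = 0.0616). A match is only a run of letters, and ERO1B, CANX, CRELD2, H1-5 and these promoters were chosen after their values were seen.

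At 24 h, 6955 genes were called, 39.2% of those tested, with 3210 higher (18.1%) and 3745 lower (21.1%) with methionase. The counts of gene lists below are to be read against these shares. Most differences were small, with a median size of 0.34 log2 among called genes. A difference of at least 1 log2 was reached by 131 genes upward (0.738%) and 38 downward (0.214%), and with voom on recovered reads by 851 upward and 305 downward. On the deposited scale one of at least 2 was reached by 15 upward and 1 downward. The libraries of the groups did not overlap for 48.6% of the tested genes. Among the 169 genes with at least 1 log2, methionase library 2 lay farthest from the vector mean for 117, library 1 for 39 and library 3 for 13. Their median sizes were 1.42, 1.14 and 1.10 log2. Without methionase library 2 the count of 169 was 131 and without library 3 it was 200, so the number of large differences varied with the library left out.

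Of the 15 genes that rose by at least 2 log2, 4 were replication-dependent histones (H2BC21, H1-2, H2BU1 and H1-4). H2BC21, a histone H2B gene whose transcript can carry a poly-A tail, had 219, 194 and 184 normalised reads with the vector and 7446, 8442 and 3989 with methionase. All methionase libraries lay far above the vector libraries, a 33.3-fold difference of means and 4.52 ± 0.16 log2 (limma, adjusted p = 2.16e-15). HSPA5 codes for BiP, the main HSP70 chaperone of the ER. It had 10986, 11561 and 10255 normalised reads with the vector and 79146, 67978 and 48215 with methionase, a log2 difference of 2.54 ± 0.13 (adjusted p = 1.22e-12). BRD2, a bromodomain protein that reads acetylated histones, had 474, 469 and 500 against 2652, 2634 and 2030, a log2 difference of 2.15 ± 0.08 (limma, adjusted p = 6.82e-15). SLIT2, a secreted axon guidance protein, had 5600, 5802 and 5237 normalised reads against 29966, 27276 and 17018 (2.10 ± 0.13). ADAMTS1, a secreted metalloprotease, had 3558, 3802 and 3344 against 20111, 15396 and 11643 (2.08 ± 0.16). In both, methionase library 3 was the lowest of its group and still well above every vector library. The largest changes in each direction were chosen among genes whose groups did not overlap, so that separation is a description.

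CHAC1, which breaks down glutathione and is a classical ATF4 target, showed the largest decrease. It had 1059, 842 and 567 normalised reads with the vector and 174, 119 and 131 with methionase, a log2 difference of -2.02 ± 0.20 (limma, adjusted p = 4.24e-08). The vector libraries of CHAC1 themselves spread widely, but the lowest of them stayed above every methionase library. NCOA5, a coregulator of nuclear receptors, had 951, 896 and 1006 normalised reads against 249, 259 and 284 (-1.58 ± 0.09). Within each group the libraries of NCOA5 differed little. INTS5, a subunit of the Integrator complex that ends transcription of small nuclear RNA genes, had 656, 654 and 599 against 230, 168 and 261 (-1.27 ± 0.09). LCMT2, a tRNA-modifying enzyme, had 434, 423 and 450 against 120, 116 and 223 (-1.2 ± 0.12), and VPS18, a core subunit of the complexes that tether vesicles to lysosomes, 464, 485 and 477 against 169, 130 and 216 (-1.17 ± 0.10). In LCMT2 and VPS18, methionase library 3 was the nearest to the vector. HPS6 of lysosome-related organelles (-1.23 ± 0.09), the galactosyltransferase B3GALT6 (-1.22 ± 0.11), the transporter SLC16A13 (-1.21 ± 0.10), the GTPase RAB36 (-1.12 ± 0.08), and the DNA-binding proteins ZSCAN25 (-1.16 ± 0.10) and HOMEZ (-1.11 ± 0.09) completed this group with glucose genes described below.

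**Figure D1:**
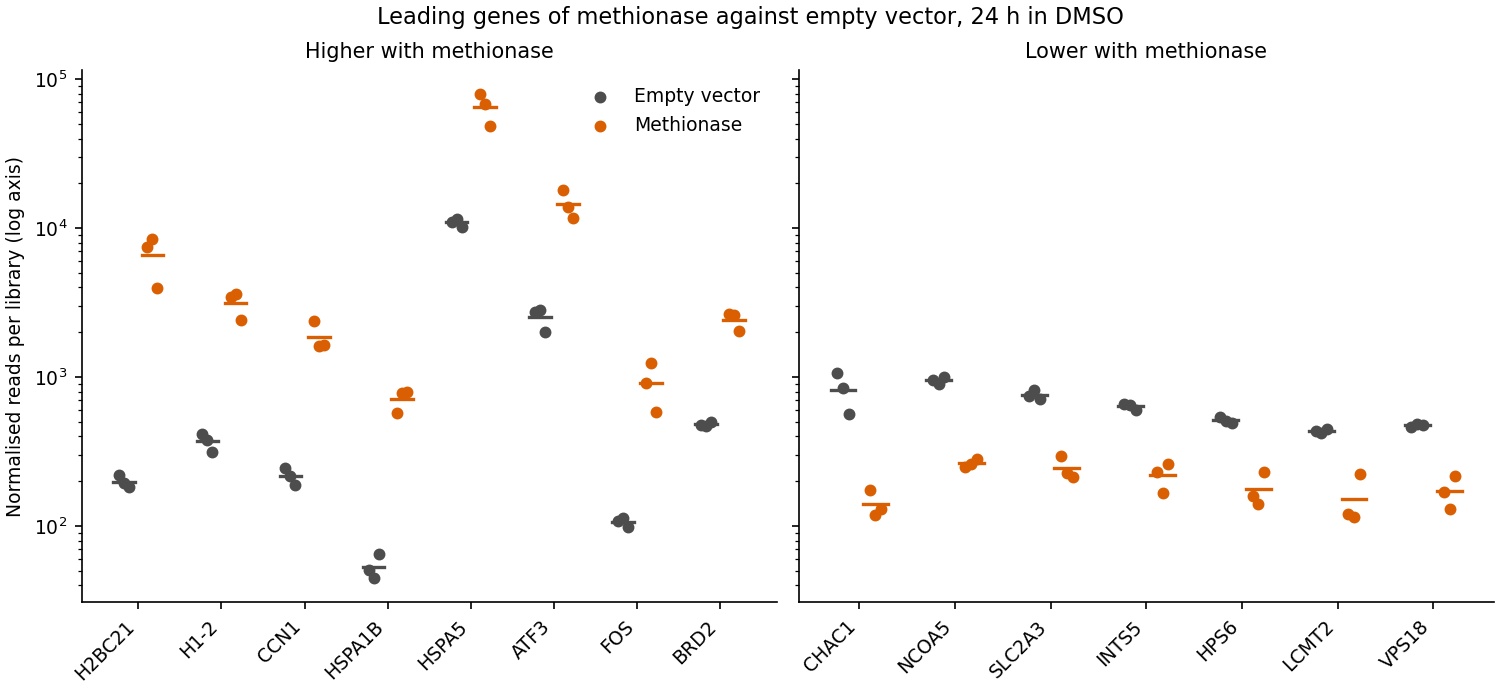
Normalised reads per library (log axis) of 8 genes that were higher and 7 that were lower with methionase at 24 h; grey points are the 3 empty vector libraries, orange points the 3 methionase libraries and lines their means. The groups do not overlap for any of the 15 genes shown, and the widest gap is that of H2BC21. Non-overlap was required of the largest changes when they were chosen.

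Of 65 replication-dependent histone genes on the list, 34 passed the filter on low values, and 30 of these rose and none fell, against 18.1% and 21.1% of all tested genes. Their median difference was 0.79, against 0.01 over all genes. Many had few reads with the vector and passed the filter through the methionase libraries, so that they had to differ; without the filter 34 rose, none fell and the median was 0.37. With voom on recovered reads, which does not shrink low values, the median was 2.17, and with the stricter filter 19 of 21 rose and it was 1.19. H1-2, a linker histone gene, had 418, 380 and 314 normalised reads with the vector and 3453, 3615 and 2414 with methionase (2.82 ± 0.12). H1-4, another linker histone, went from 3.64, 7.44 and 4.62 normalised reads to 216, 189 and 120, a 33.4-fold difference of means that the deposited scale gives as 2.03 ± 0.12. The H2B genes H2BU1 (13.7, 11.2 and 9.23 against 370, 523 and 219), H2BC11 (42.8, 35.3 and 49.8 against 326, 442 and 243) and H2BC5 (95.6, 68.8 and 59.1 against 416, 410 and 338) rose by 2.59, 1.87 and 1.67, and the H2A gene H2AC6 by 1.19. No vector library of these genes reached a methionase library. Histone genes are near copies of one another and reads may be shared between them, so single values are uncertain.

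As a class, replication-dependent histones took 0.0171%, 0.0158% and 0.0161% of the reads of the vector libraries and 0.0865%, 0.0952% and 0.0618% with methionase. This sum over 57 genes of the table does not depend on the filter. H2BC21 and H1-2 carried most of the rise: without them, an alternative chosen after seeing the data, the share was 0.0138%, 0.0128% and 0.0134% with the vector and 0.0324%, 0.0356% and 0.0287% with methionase. Most transcripts of this class end in a stem-loop with no poly-A tail, and the libraries were made from poly-A RNA; more histone RNA and more of it with a poly-A tail cannot be told apart here. Replacement histone genes, whose transcripts carry poly-A tails, went both ways, with 5 of 12 higher and 4 lower (2 lower without vector replicate 2). The linker histone H1-10 rose by 0.76 ± 0.11. MACROH2A2 fell by 0.36 ± 0.06 and H2AZ2 by 0.28 ± 0.06.

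Early response genes rose in number. Of 32 tested AP-1 and immediate early genes, 19 rose and 1 fell, with a median of 0.54. JUN had 6627, 7269 and 5358 normalised reads with the vector and 33382, 26679 and 27129 with methionase (2.17 ± 0.14). FOS, its partner in AP-1, had 108, 112 and 98.8 against 908, 1236 and 585 (2.38 ± 0.22). ATF3, a stress-induced repressor of the same family, had 2744, 2834 and 2023 against 17926, 13938 and 11647 (2.47 ± 0.22). In all 3 the groups were well apart, although the methionase libraries of FOS differed by more than those of JUN. The orphan nuclear receptor NR4A1 rose by 1.76 ± 0.16, JUNB by 1.41 ± 0.12, the small GTPase RHOB by 2.35 ± 0.13 and IER2 by 1.03 ± 0.06. EGR1, a zinc finger factor that usually rises with FOS after growth factors, went the other way, with 228, 267 and 208 normalised reads against 85.5, 52.1 and 93.4 (-1.07 ± 0.12, limma, adjusted p = 2.88e-07).

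Feedback regulators of MAP kinases were mixed, with 8 of 20 higher and 3 lower. DUSP1, a nuclear phosphatase of p38 and JNK, had 633, 689 and 501 normalised reads against 4133, 3211 and 2678 (2.3 ± 0.18), and the receptor inhibitor ERRFI1 had 673, 670 and 640 against 1704, 1737 and 1436 (1.2 ± 0.08). The phosphatase genes DUSP5 (0.80 ± 0.09), DUSP10 (0.66 ± 0.11) and DUSP16 (0.55 ± 0.09) also rose. DUSP6, which acts on ERK, was not called (0.09 ± 0.08), and SPRED1, an inhibitor of the RAS pathway, fell by 0.39 ± 0.09. Of 25 YAP-TEAD targets, 6 rose and 5 fell (44% called, against 39.2% of all tested genes). CCN1, a matricellular protein, had 245, 217 and 189 normalised reads against 2368, 1624 and 1633 (2.7 ± 0.19). Its relative CCN2 had 35.5, 33.5 and 28.6 against 157, 120 and 77.2 (0.93 ± 0.14). FJX1 and AJUBA fell by 0.65 ± 0.10 and 0.51 ± 0.09.

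BMP and TGF-beta genes moved both ways. Of 22, 10 rose and 7 fell. The ID proteins, which block basic helix-loop-helix factors and are direct BMP targets, all rose. ID3 had 378, 338 and 399 normalised reads with the vector and 1967, 1466 and 1348 with methionase (1.87 ± 0.15), ID1 43.7, 43.7 and 52.6 against 196, 175 and 166 (1.14 ± 0.14), and ID2 and ID4 rose by 0.61 ± 0.10 and 0.60 ± 0.11. The decoy receptor BAMBI rose by 0.47 ± 0.09. The ligand BMP2 fell from 149, 135 and 132 normalised reads to 67.4, 52.1 and 74.1 (-0.66 ± 0.08), the receptor TGFBR1 by 0.63 ± 0.07 and the corepressor SKI by 0.37 ± 0.07.

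The ER folding machinery rose in part. Of 29 ER chaperones and foldases, 12 rose and 3 fell, with a median of 0.15. Beside HSPA5, the lectin chaperone CALR had 10676, 10975 and 10356 normalised reads with the vector and 17063, 15922 and 16678 with methionase (0.63 ± 0.06), and HSP90B1, the ER form of HSP90, 14629, 15575 and 15185 against 22901, 23067 and 22001 (0.58 ± 0.07). MANF, a secreted ER stress protein, rose by 0.58 ± 0.08 and the disulfide isomerase PDIA4 by 0.45 ± 0.06. In these 4 the change was well below that of HSPA5. CNPY2 fell by 0.66 ± 0.07 and the thioredoxin-domain gene TXNDC11 by 0.34 ± 0.08.

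ER-associated degradation, which returns misfolded protein to the proteasome, had 3 of 25 genes higher and 11 lower, with a median of -0.15. HERPUD1, a stress-induced member of the pathway, rose from 2018, 1930 and 1683 normalised reads to 4500, 4133 and 3525 (1.07 ± 0.13). SEL1L, the adaptor of the HRD1 ligase, fell from 1078, 1096 and 968 to 710, 654 and 621 (-0.60 ± 0.07), the conjugating enzyme UBE2J1 by 0.50 ± 0.07 and DERL1 of the exit channel by 0.48 ± 0.06. SYVN1, the ligase itself, was not called (-0.13 ± 0.07). Of 15 sensors and regulators of ER stress, 4 rose and 7 fell. PPP1R15A, the stress-induced subunit that reverses eIF2 phosphorylation, had 769, 802 and 730 normalised reads against 2007, 2437 and 1833 (1.35 ± 0.13), and its constitutive relative PPP1R15B rose by 0.61 ± 0.13. EIF2AK3, which codes for the sensor PERK, fell from 347, 354 and 318 to 218, 237 and 240 (-0.43 ± 0.09), WFS1 fell by 0.44 ± 0.11, and ATF6 was not called (-0.11 ± 0.07). ERN1, which codes for IRE1, rose by 0.32 ± 0.10, but without vector replicate 3 it was not called (0.23, limma, adjusted p = 0.0785).

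Cytosolic chaperones rose more often than they fell, with 15 of 30 higher and 1 lower and a median of 0.20. With quantile normalization 10 rose, 2 fell and the median was 0.11. HSPA1B, an inducible HSP70 gene, had 51.0, 44.6 and 64.6 normalised reads against 574, 777 and 793 (2.66 ± 0.21), and its near-identical copy HSPA1A makes its own value uncertain. CHORDC1, a partner of HSP90, rose by 0.61 ± 0.08, the HSP40 gene DNAJB4 by 0.44 ± 0.07 and the co-chaperone BAG3 by 0.32 ± 0.07. DNAJA1, another HSP40, fell from 4800, 5090 and 5257 to 3195, 3289 and 3577 (-0.58 ± 0.07).

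Genes of methionine metabolism itself changed little in comparison. Of 10 tested genes of the methionine cycle, 4 rose and 4 fell. Among those that fell, methionine synthase MTR had 2930, 3216 and 2704 normalised reads with the vector and 2280, 2238 and 2096 with methionase (-0.40 ± 0.07), and its reductase MTRR fell by 0.44 ± 0.06. MAT2A, the main enzyme for S-adenosylmethionine outside the liver, had 5167, 4844 and 6405 against 2946, 4811 and 5309. Its groups overlapped, and the difference of -0.36 ± 0.17 was not called (limma, adjusted p = 0.103), except without methionase replicate 3 (-0.52, adjusted p = 0.0293). AHCYL2, a relative of the enzyme that splits S-adenosylhomocysteine, rose by 0.23 ± 0.07 (not called without vector replicate 3, limma, adjusted p = 0.0589). Without vector replicate 1 or without vector replicate 3, only 2 genes of the cycle rose.

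In polyamine metabolism and methionine salvage, 3 of 18 rose and 5 fell. SAT1, which acetylates polyamines for breakdown and export, had 1215, 1352 and 1314 normalised reads against 6610, 5406 and 4119 (1.96 ± 0.14), far above the rest of the list, and SAT2 rose by 0.45 ± 0.06. AMD1, which commits S-adenosylmethionine to polyamine synthesis, fell from 3754, 3888 and 3734 to 2558, 2670 and 2584 (-0.53 ± 0.07). The number that fell was 3 without methionase replicate 2 and also without methionase replicate 3. On the way to cysteine and glutathione 1 of 16 genes rose and 6 fell. SLC7A11, the cystine importer, fell from 1047, 948 and 823 normalised reads to 466, 403 and 329 (-1.09 ± 0.12), CTH, which releases cysteine from cystathionine, by 0.53 ± 0.12, and GCLC, the catalytic subunit of the first glutathione enzyme, by 0.41 ± 0.07. CBS, the first step of transsulfuration, was not called (-0.20 ± 0.14), and the glutathione peroxidase GPX4 rose by 0.33 ± 0.06.

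The ATF4 programme, which usually rises when amino acids run short, was mainly lower. Of 27 ATF4 targets, 18 fell and 3 rose, with a median of -0.43. SESN2, a leucine sensor that restrains mTORC1, had 4834, 3988 and 3364 normalised reads with the vector and 2282, 1646 and 1734 with methionase (-1.07 ± 0.14). The peptide hormone ADM2 fell by 0.97 ± 0.11, the mTORC1 inhibitor DDIT4 by 0.81 ± 0.20 and the pseudokinase TRIB3 by 0.76 ± 0.15. Against this direction, asparagine synthetase ASNS had 236, 173 and 169 against 361, 350 and 243 (0.55 ± 0.14) and GDF15, a stress hormone, 58.3, 50.2 and 45.2 against 182, 96.8 and 151 (0.83 ± 0.12). DDIT3, which codes for CHOP, rose by 0.65 ± 0.20, but was not called without vector replicate 3 (0.48, limma, adjusted p = 0.0812).

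Supply lines of amino acids and one-carbon units moved in the same direction as the ATF4 targets, with which the transporter list shares SLC7A11 and SLC3A2 and the one-carbon list PHGDH, PSAT1 and MTHFD2. Of 28 amino acid transporters, 14 fell and 3 rose, with a median of -0.21. SLC1A4, a carrier of small neutral amino acids, had 1177, 1089 and 916 normalised reads against 448, 382 and 525 (-1.10 ± 0.10), the glycine carrier SLC6A9 973, 866 and 856 against 426, 374 and 416 (-1.01 ± 0.08), and the glutamine carriers SLC38A1 and SLC38A2 fell by 0.79 ± 0.07 and 0.81 ± 0.09. SLC7A5, which imports methionine and other large amino acids, fell from 8632, 7975 and 6711 to 6185, 4830 and 4733 (-0.56 ± 0.10), whereas its partner SLC3A2 was not called (-0.03 ± 0.08). SLC38A9, the arginine sensor of the lysosome, fell by 0.84 ± 0.08. Of 19 folate and serine enzymes, 10 fell and 2 rose (median -0.21). The serine pathway genes PHGDH (-0.33 ± 0.08), PSAT1 (-0.55 ± 0.07) and PSPH (-0.64 ± 0.08) all fell, as did the mitochondrial folate carrier SLC25A32 (-0.61 ± 0.07), while MTHFD2 was not called (-0.07 ± 0.08). Of 25 aminoacyl-tRNA synthetases and their partners, 12 fell and 3 rose (median -0.19). MARS1, which loads methionine onto its tRNA, had 8774, 8106 and 7791 against 7181, 6642 and 6431 (-0.28 ± 0.06), and the lysine enzyme KARS1 rose by 0.26 ± 0.06.

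**Figure D2:**
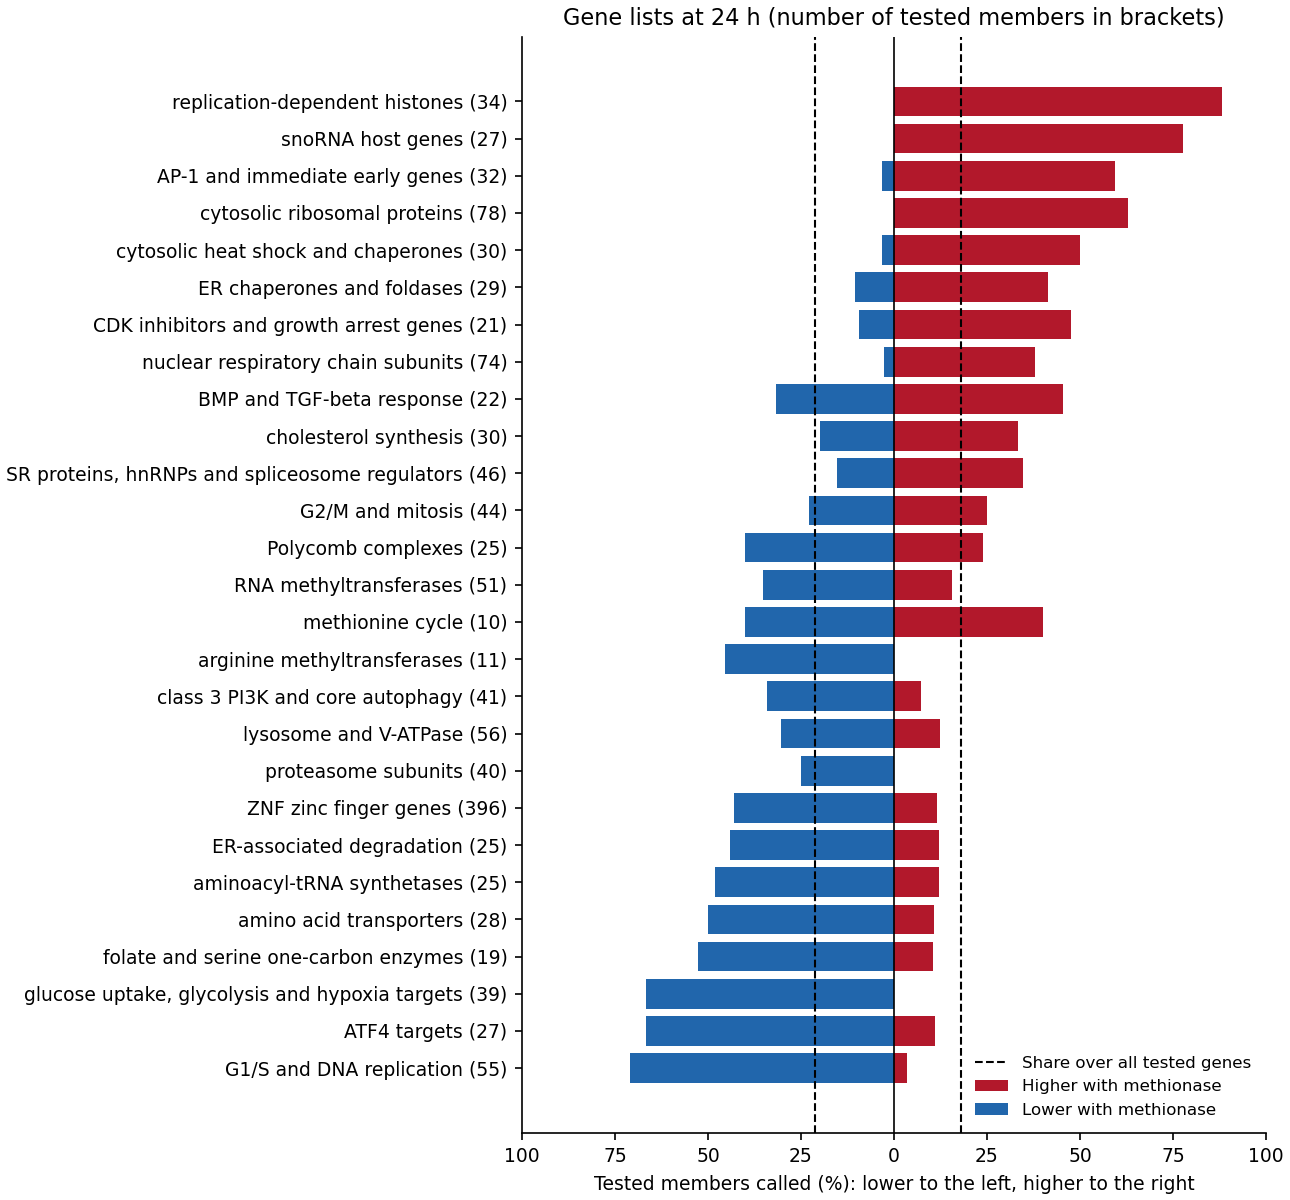
Share of tested members that were called lower (blue, to the left) or higher (red, to the right) with methionase at 24 h, for 27 gene lists with their number of tested members; dashed lines mark the shares over all 17755 tested genes, 21.1% lower and 18.1% higher. Histone and snoRNA host genes reach farthest to the right, and G1/S genes, ATF4 targets and glucose genes farthest to the left.

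Among the enzymes that spend S-adenosylmethionine, each list held more genes that fell than rose, as did all tested genes (21.1% fell and 18.1% rose). Of 33 histone lysine methyltransferases, 6 rose and 9 fell, with a median of -0.02. SETD7, a monomethyltransferase, had 2449, 2601 and 2206 normalised reads with the vector and 1348, 1226 and 1262 with methionase (-0.87 ± 0.07), and SETD1B and SETD1A, which methylate histone H3 lysine 4, fell by 0.51 ± 0.07 and 0.35 ± 0.06. EZH1 had 1146, 1043 and 1428 against 1773, 2289 and 1958 (0.70 ± 0.12), its relative EZH2 1908, 1885 and 2151 against 2264, 2483 and 2350 (0.25 ± 0.06), and NSD3 rose by 0.50 ± 0.07. KMT2A was not called (0.09 ± 0.11). Of 11 arginine methyltransferases and partners, 5 fell and none rose. PRMT6 fell from 1394, 1366 and 1342 normalised reads to 721, 665 and 794 (-0.84 ± 0.07), PRMT2 by 0.64 ± 0.06 and PRMT7 by 0.55 ± 0.07. PRMT1, the main enzyme of the family, was not called (0.10 ± 0.07), and neither was CARM1 (-0.03 ± 0.07).

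RNA methyltransferases and partners gave 8 higher and 18 lower of 51. TGS1, which trimethylates the cap of small nuclear RNAs, had 834, 895 and 782 normalised reads against 300, 348 and 423 (-1.07 ± 0.08), MEPCE, the capping enzyme of 7SK RNA, 1980, 1971 and 1893 against 1126, 879 and 1255 (-0.81 ± 0.09), and the cytosine methyltransferase NSUN2 2310, 2448 and 2359 against 1529, 1511 and 1354 (-0.67 ± 0.06). METTL14 of the N6-adenosine complex fell by 0.42 ± 0.08, whereas RBM15, which guides that complex, rose from 680, 619 and 576 to 1338, 1356 and 1177 (0.96 ± 0.10). For DNA methylation 3 of 15 rose and 4 fell. TET1, which oxidises 5-methylcytosine, rose from 472, 554 and 423 to 966, 950 and 866 (0.84 ± 0.09), TDG, which removes the oxidised bases, fell from 1478, 1471 and 1525 to 869, 942 and 824 (-0.71 ± 0.07), and of the partners of maintenance methylation UHRF1 fell by 0.51 ± 0.06 and UHRF2 rose by 0.51 ± 0.07. The maintenance enzyme DNMT1 was not called (-0.09 ± 0.07).

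Other chromatin genes also moved both ways. Of 23 histone demethylases 3 rose and 8 fell: KDM6B, which acts on histone H3 lysine 27, rose by 0.54 ± 0.08, and KDM8 and KDM3A fell by 0.59 ± 0.08 and 0.54 ± 0.06. Of 25 Polycomb genes 6 rose and 10 fell, with SUZ12 of complex PRC2 at -0.42 ± 0.07, the chromodomain gene CBX6 at -0.79 ± 0.08, from 2529, 2647 and 2568 normalised reads to 1494, 1347 and 1523, and PCGF1 of PRC1 at 0.73 ± 0.07. EED was not called (-0.14 ± 0.07). Of 32 remodellers 5 rose and 13 fell, among them SMARCAD1 at -0.68 ± 0.07 and ATRX at 0.47 ± 0.09, while SMARCA4 and CHD4 were not called (0.04 ± 0.07 and 0.01 ± 0.07). The zinc finger genes named ZNF, many of them repressors of repeats, were lower in larger numbers, with 170 of 396 lower, 46 higher and a median of -0.17 (-0.10 without the filter). ZNF629 fell from 2124, 2196 and 2032 to 1059, 878 and 1156 (-0.99 ± 0.07) and ZNF268 by 0.91 ± 0.08, whereas ZNF143, an activator at many promoters, rose from 392, 357 and 427 to 824, 807 and 816 (0.92 ± 0.07).

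Genes of S phase entry were lower while those of mitosis were split. Among 55 tested genes of G1/S and DNA replication, 39 were lower and 2 higher, with a median of -0.29. BRCA1, a repair gene induced in S phase, had 2118, 2173 and 1987 normalised reads against 1262, 1216 and 1320 (-0.69 ± 0.06), the sliding clamp PCNA 5640, 5763 and 6176 against 4053, 4471 and 4557 (-0.42 ± 0.06), and cyclin E2, CCNE2, fell by 0.39 ± 0.08. RRM2, which makes deoxynucleotides, rose by 0.27 ± 0.06 and the phosphatase CDC25A by 0.21 ± 0.06. The replication-dependent histones, which are usually made in S phase, thus rose in the same libraries in which these genes fell. Of 44 G2/M genes 11 rose and 10 fell (47.7% called, against 39.2% of all tested genes). CKS2, a partner of cyclin-dependent kinases, had 2200, 2530 and 2252 against 5223, 7236 and 6151 (1.37 ± 0.08), UBE2C and CDC20 of the anaphase complex rose by 0.42 ± 0.07 and 0.39 ± 0.07, the motor KIF11 fell by 0.50 ± 0.06, and CDK1 and PLK1 were not called (0.09 ± 0.06 and -0.09 ± 0.07). Without vector replicate 1, 7 G2/M genes rose and 7 fell, and the number that fell was 5 without methionase replicate 1 or with quantile normalization and 6 without vector replicate 3.

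Growth arrest genes rose in 10 of 21 cases and fell in 2. GADD45A, a sensor of stress, had 1258, 1287 and 991 normalised reads against 3371, 2696 and 2627 (1.24 ± 0.13), the antiproliferative gene BTG1 1876, 1888 and 1752 against 4722, 4350 and 3534 (1.15 ± 0.09), and GADD45B rose by 0.89 ± 0.09. The kinase inhibitor CDKN1B was not called (0.12 ± 0.08), and RBL1, of the retinoblastoma family, fell by 0.56 ± 0.08. Of 20 BCL2 family genes, 3 rose and 5 fell (40% called, near the 39.2% of all tested genes). The death-promoting genes PMAIP1 and BBC3 rose by 0.75 ± 0.14 and 0.50 ± 0.11, and HRK and BNIP3 fell by 0.65 ± 0.09 and 0.72 ± 0.13.

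Glucose use and the hypoxia programme were lower, with 26 of 39 genes lower, none higher and a median of -0.32. SLC2A3, the glucose transporter GLUT3, had 750, 826 and 718 normalised reads against 297, 229 and 213 (-1.38 ± 0.15), and PFKFB4, which sets the level of a glycolysis activator, 606, 603 and 529 against 208, 213 and 211 (-1.18 ± 0.10). SLC2A1, GLUT1, had 1227, 1411 and 1377 against 596, 557 and 529 (-1.14 ± 0.09). The groups were fully apart in all 3. PDK1, which closes the entry of pyruvate into mitochondria, fell by 0.78 ± 0.09 and the oxygen sensor EGLN1 by 0.77 ± 0.07. LDHA, lactate dehydrogenase, had 32984, 34332 and 32969 against 29755, 27493 and 19923 (-0.40 ± 0.12), and was not called without methionase replicate 3 (-0.22, limma, adjusted p = 0.138).

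Cholesterol genes moved both ways. Of 30, 10 rose and 6 fell. INSIG1, which holds the SREBP activator in the ER and is induced by SREBP, had 8406, 9064 and 8938 normalised reads against 17045, 19452 and 23376 (1.16 ± 0.10). MSMO1 had 1330, 1461 and 1335 against 2793, 3129 and 3049 (1.07 ± 0.06) and IDI1 3063, 3285 and 3241 against 5821, 6876 and 7612 (1.05 ± 0.09); both are enzymes of sterol synthesis. HMGCS1 rose by 0.85 ± 0.11 and SQLE by 0.61 ± 0.07. INSIG2 fell by 0.77 ± 0.09, SREBF1 by 0.61 ± 0.07 and lanosterol synthase LSS by 0.57 ± 0.08. In INSIG1 and IDI1 methionase library 3 was the highest.

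The target of the inhibitor used elsewhere in the series was itself lower with methionase in these DMSO libraries. PIK3C3, which codes for the lipid kinase VPS34, had 658, 703 and 690 normalised reads with the vector and 419, 419 and 399 with methionase (-0.63 ± 0.06, limma, adjusted p = 3.2e-08), and its regulatory subunit PIK3R4 935, 917 and 930 against 719, 694 and 696 (-0.36 ± 0.06). ULK1, the kinase that starts autophagy, fell by 0.48 ± 0.09. Of 41 genes of this complex and core autophagy, 14 fell and 3 rose (41.5% called, against 39.2% of all tested genes). GABARAPL1, which coats autophagosomes, rose from 1447, 1483 and 1451 to 2831, 3095 and 2604 (0.92 ± 0.12) and its relative GABARAP by 0.24 ± 0.06. Of 56 lysosome genes 17 fell and 7 rose, 42.9% called (11 rose with equal library medians or quantile normalization). Subunits of the proton pump were among the lower ones, with ATP6V0A2 at -0.64 ± 0.07, ATP6V1B2 at -0.60 ± 0.07 and ATP6V1C1 at -0.59 ± 0.06, as was RRAGC, a GTPase that brings mTORC1 to the lysosome (-0.61 ± 0.07). The membrane protein LAMP1 and the protease CTSD were not called (-0.07 ± 0.06 and -0.01 ± 0.07). Of 31 genes of the fasting and insulin response 8 fell and 2 rose (32.3% called). PPARA, the nuclear receptor of fatty acid burning, had 607, 614 and 517 against 376, 335 and 407 (-0.54 ± 0.08). CPT2, which frees fatty acids for oxidation in mitochondria, fell by 0.59 ± 0.07.

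Ribosomal protein genes rose by small amounts, with 49 of 78 higher, none lower and a median of 0.29. This depended on the scaling: with quantile normalization 19 rose, 2 fell and the median was 0.11. RPL24 had 8060, 8300 and 8156 normalised reads against 12240, 11018 and 10429 (0.45 ± 0.07) and RPL19 21873, 23486 and 20665 against 30491, 28125 and 28320 (0.40 ± 0.07). The class took 8.70% to 9.79% of the reads with the vector and 10.3% to 11.3% with methionase. Genes for building ribosomes did not rise with them, as 22 of 52 fell and 3 rose, among them UTP25 (-0.67 ± 0.07) and the RNA polymerase subunit POLR1C (-0.59 ± 0.06). Of 44 translation factors 9 rose and 8 fell (38.6% called, near the 39.2% of all tested genes). However, 4 fell without methionase replicate 3 and 5 without vector replicate 2, and 5 rose and 5 fell with only the 6 libraries compared. EIF5, which triggers GTP hydrolysis at the start codon, had 3037, 3342 and 3588 against 1655, 1573 and 1609 (-1.0 ± 0.10), while the helicase EIF4A2 rose by 0.67 ± 0.07.

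Small nucleolar RNAs (snoRNAs), which guide the modification of ribosomal RNA and mostly lie in introns of host genes, showed the highest share of calls of any gene type. Of 161 tested, 137 rose and 1 fell (85.7% called), with a median of 0.65. The filter used the mean over all 18 libraries, so genes with few reads may have passed it through groups where they were high. This limit applies to the counts of snoRNAs and long non-coding RNAs, for which no count without the filter is given here. Both classes took part, with 85 of 99 box C/D and 46 of 52 box H/ACA snoRNAs higher and none lower. Of 27 host genes 21 rose and none fell, with a median of 0.46. SNHG3 had 2876, 2406 and 3086 normalised reads against 8002, 8618 and 6426 (1.43 ± 0.09), SNHG1 3493, 3355 and 3624 against 7180, 10447 and 7921 (1.25 ± 0.11) and GAS5 5142, 5778 and 4582 against 9839, 11836 and 9263 (0.98 ± 0.09). Mature snoRNAs have no poly-A tail, and reads on a snoRNA and on unspliced RNA of its host cannot be told apart in these data. Long non-coding RNAs also rose more often than they fell, with 638 of 2604 higher and 178 lower, whereas of 13540 protein-coding genes 2188 rose and 3444 fell.

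**Figure D3:**
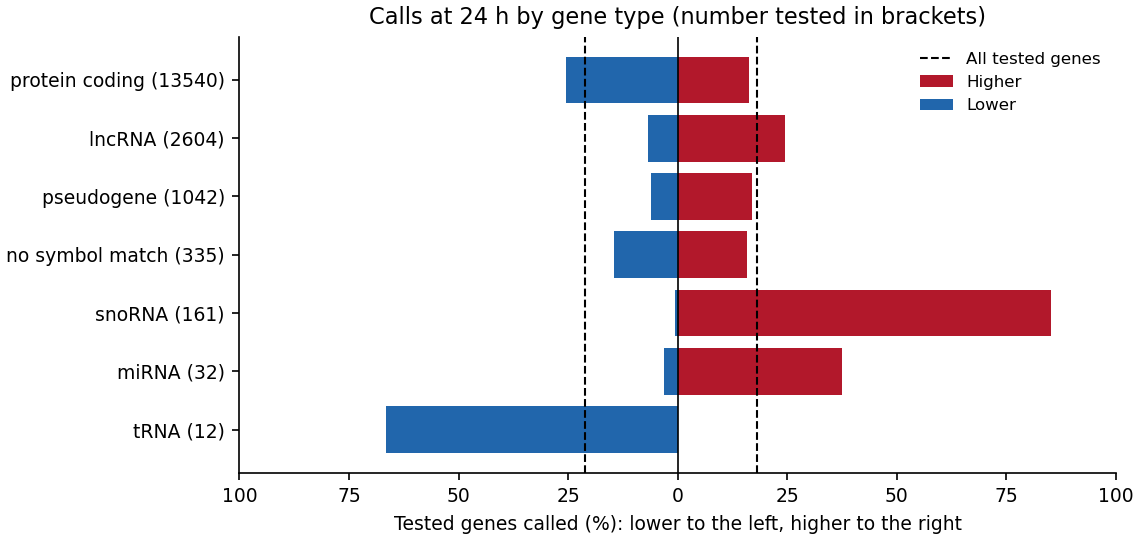
Share of tested genes of each type that were called lower (blue, to the left) or higher (red, to the right) with methionase at 24 h, with the number tested; dashed lines mark the shares over all tested genes. Almost all called snoRNAs lie to the right, and the 8 called tRNA genes to the left.

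Among 46 SR proteins, hnRNPs and spliceosome regulators, 16 rose and 7 fell (12 fell with quantile normalization). The kinases of SR proteins CLK1 and CLK4 had 889, 890 and 1332 against 2075, 2541 and 2202 normalised reads (1.09 ± 0.14) and 315, 301 and 445 against 744, 783 and 813 (1.0 ± 0.10), and the SR protein SRSF4 rose by 0.70 ± 0.08. HNRNPM had 8914, 9137 and 8738 against 5877, 4714 and 4675 (-0.81 ± 0.08), and SRSF3 fell by 0.60 ± 0.09. Of 11 paraspeckle genes and nuclear long RNAs, 4 rose and 6 fell. Among the proteins SFPQ stood at 9216, 9390 and 9529 against 5301, 5366 and 4516 (-0.88 ± 0.07), PSPC1 at -0.66 ± 0.07 and RBM14 at -0.69 ± 0.08. The long RNA MALAT1 of nuclear speckles had 18.2, 13 and 20.3 against 112, 152 and 52.8 (1.13 ± 0.15). NEAT1, the RNA scaffold of paraspeckles, had 33.7, 19.5 and 108 against 96.2, 329 and 249 (1.29 ± 0.27); vector library 3 lay above methionase library 1, so its groups overlapped.

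RNA from the mitochondrial genome was unequal by gene. The 2 ribosomal RNAs took 0.507%, 0.480% and 0.657% of the reads with the vector and 0.938%, 2.01% and 1.52% with methionase, and RNR2 and RNR1 rose by 1.49 ± 0.20 and 1.11 ± 0.15. The 13 messenger RNAs together took 2.57%, 2.25% and 3.90% against 2.11%, 4.61% and 3.96%, with overlapping groups. ND1 had 18794, 17506 and 28814 normalised reads against 5696, 12450 and 17033 (-0.98 ± 0.29) and ND2, its neighbour, 17311, 17238 and 25839 against 5582, 13726 and 14956 (-0.91 ± 0.28). ND1 and ND2 were not called without methionase replicate 1 (-0.54 and -0.46, limma, adjusted p = 0.108 and 0.128) or without vector replicate 3 (-0.76 and -0.72, adjusted p = 0.0627 and 0.0659). Of 10 mitochondrial tRNA genes tested, 8 fell and none rose, with a median of -0.55. The share of mitochondrial rRNA was higher in every methionase library, and its part in the other differences was not tested. Nuclear genes of the respiratory chain rose in 28 of 74 cases and fell in 2 (median 0.15), such as ATP5ME of ATP synthase (0.68 ± 0.11) and COX6C (0.40 ± 0.06), against NDUFC2 of complex I (-0.65 ± 0.09).

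**Figure D4:**
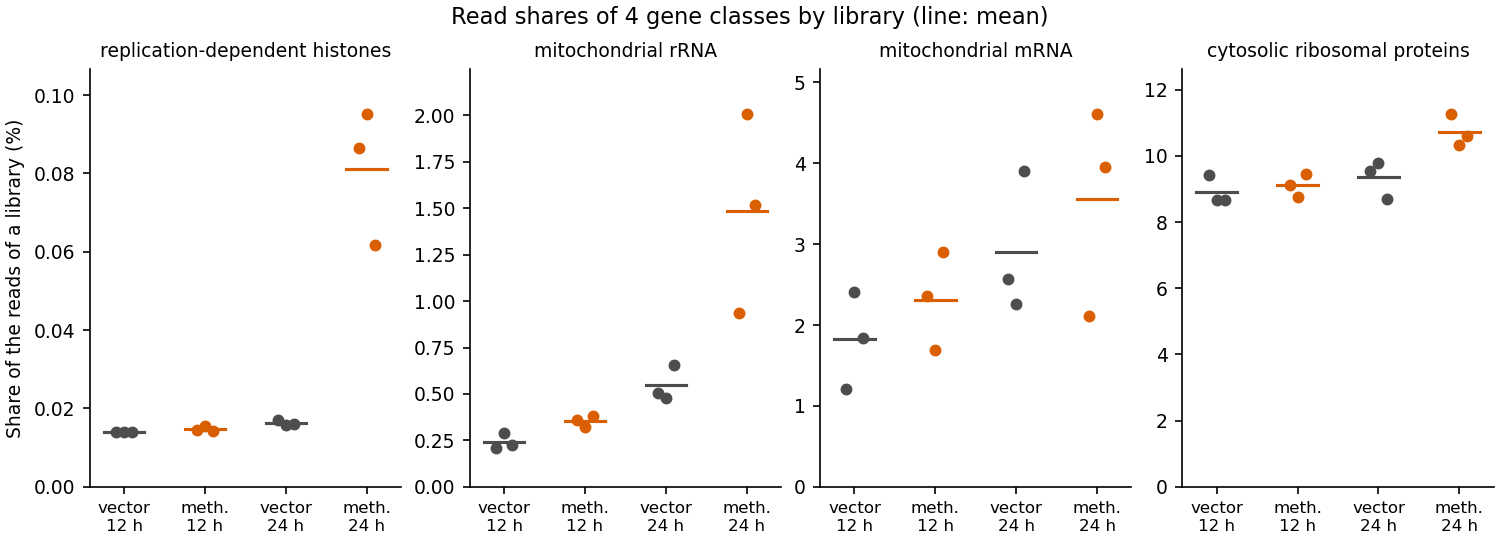
Share of the reads of each library (%, linear axis from 0) taken by replication-dependent histones, mitochondrial rRNA, mitochondrial mRNA and cytosolic ribosomal proteins at 12 h and 24 h in DMSO; grey points are empty vector libraries, orange points methionase libraries and lines their means. Histone and mitochondrial rRNA shares are apart between the 24 h groups and, by less, between the 12 h groups, and the mitochondrial mRNA shares overlap.

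At 12 h fewer genes were called; 121 genes were higher (0.681%) and 264 lower (1.49%). The test of methionase by time, which asks whether the difference at 24 h departed from that at 12 h, called 2071 genes (11.7%), 947 more positive at 24 h (5.33%) and 1124 more negative (6.33%). With equal library medians the split turned, to 1431 more positive and 722 more negative. The count was 1276 without methionase 12 h replicate 1 and 1325 without vector 24 h replicate 1. Of the 6955 genes called at 24 h, 2006 (28.8%) were called by this test. In all 2006 the departure had the same sign as the difference at 24 h. That difference is a term of the departure and was used to choose these genes, so this count is a description. H2BC21 had a difference of 0.26 log2 at 12 h, and its departure of 4.25 was the largest. HSPA5 was at -0.04 at 12 h, FOS at -0.32, CCN1 at 0.15, H1-2 at 0.20 and CHAC1 at 0.25, and none of these was called there by limma. For CHAC1, FOS and HSPA5 the sign of the estimate was opposite to that at 24 h. For the other genes called at 24 h no departure was called, which does not show that their differences were equal at both times.

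By list, the departure was positive for 26 of the 34 tested histones and negative for none. Because many of these histones passed the filter through the methionase libraries of 24 h, this count is a description; over all 57 in the table with no filter, chosen after seeing the data, it was positive for 20 and negative for none. The departure was positive for 18 and negative for 2 of 32 early response genes, positive for 7 and negative for 1 of 29 ER chaperones, and positive for 9 and negative for 2 of 30 cholesterol genes. It was positive for none and negative for 9 of 27 ATF4 targets, for 2 and 9 of 28 amino acid transporters and for 7 and 80 of 396 ZNF genes. Some genes were lower already at 12 h: 12 of 39 of glucose uptake and hypoxia, 7 of 55 of G1/S, 5 of 56 of the lysosome and 3 of 11 of paraspeckles and nuclear long RNAs. Of the glucose genes 3 were more negative at 24 h and 1 more positive. SLC2A1 was at -0.90 at 12 h and PFKFB4 at -0.75. For SLC2A1 the departure of -0.25 ± 0.13 was not called (limma, adjusted p = 0.234), and it was -0.44 ± 0.14 for PFKFB4 (adjusted p = 0.0463). The histone share of reads at 12 h was 0.0139% to 0.0140% with the vector and 0.0142% to 0.0156% with methionase. These groups were thus already apart, though by far less than at 24 h (0.0158% to 0.0171% against 0.0618% to 0.0952%).

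**Figure D5:**
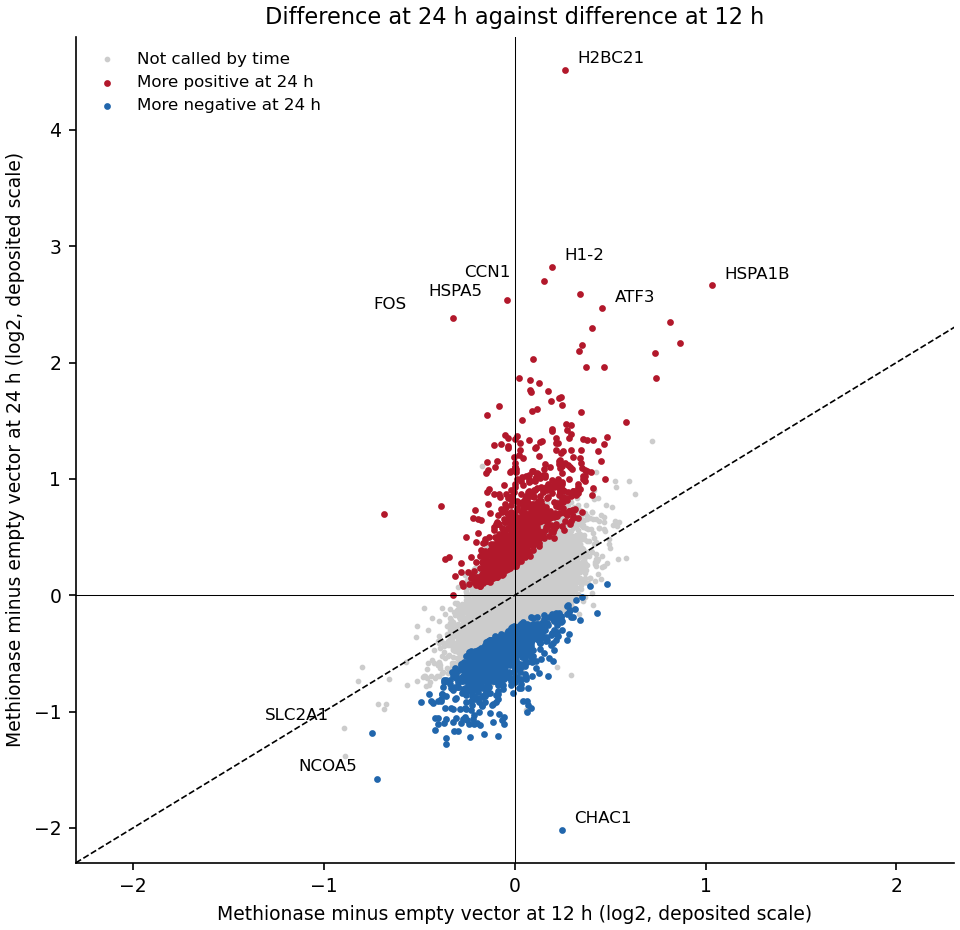
Difference between methionase and empty vector at 24 h (vertical axis) against that at 12 h (horizontal axis), both log2 on the deposited scale, for 17755 tested genes; red and blue points were called by the test of methionase by time, and the dashed line marks equal differences. Labelled genes such as H2BC21, HSPA5 and CHAC1 lie near 0 at 12 h and far from it at 24 h, whereas SLC2A1 lies near the line.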

How the data were processed

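RNA of HEK293T cells in 6-well plates was sequenced on poly-A RNA with a strand-marking (dUTP) kit, per the labels' protocols. The authors deposited 1 table of log2 values from a variance-stabilising transformation for 18 libraries in 6 groups. STAR 2.7.10b, featureCounts, DESeq2, limma and hg38 are named in the submitters' processing notes. The annotation and the strand setting are not given in the sources used here. The table has 37097 lines, of which 1 names no gene and was left out (at most 0.00216% of any library). Of the 37096 genes with a name, 36162 match a RefSeq symbol of GRCh38.p14.

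The transformation was undone, which gave whole reads for 100.0% of values within 0.01 read. The deposited log2 values were tested with limma 3.58.1 (R 4.3.3) with a variance trend, 6 group means and all 18 libraries, for genes whose mean was at least 0.5 above the lowest value of 5.45. The adjusted p is by Benjamini-Hochberg over all 17755 tested genes, with a threshold of 0.05. Methionase by time was a contrast of the same fit. The fit was tested on simulated data. No 2 libraries of the same group agreed within sampling noise (smallest chi-square per gene 2.52). Libraries of different groups were not compared in this way. All libraries carry 1 batch label.

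The members and gene lists were chosen with earlier results of these data known. Named genes were the 15 largest changes in each direction among called genes whose groups did not overlap. Each list gave its index genes, up to 5 members of lowest p in its main direction and up to 3 in the other. The 8 largest departures by time in each direction were also named. Exon counts and transcript lengths came from GENCODE release 29 and promoters from RefSeq. Alternatives were the filter, normalization, variance model, library weights, a replicate block, voom on recovered reads, fewer libraries and leaving out each library. Some genes that the rule selects are not reported here.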

Additional observations from a re-analysis of the deposited data

Results flagged for a closer look

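The difference between methionase and empty vector departed between 12 h and 24 h for 2071 genes (limma, adjusted p below 0.05). Among the named genes, the departure in log2 was 4.25 for H2BC21, 2.71 for FOS, 2.63 for H1-2, 2.58 for HSPA5, 2.55 for CCN1, 2.25 for H2BU1, 2.01 for ATF3 and 1.94 for H1-4, all more positive at 24 h. It was -2.26 for CHAC1, -1.13 for SLC16A13, -1.07 for EIF5, -1.06 for ADM2, -1.05 for the pseudogene CENPBD1P, -1.03 for LCMT2, -1.02 for MTND2P28, a nuclear copy of a mitochondrial gene whose reads may be shared with ND2, and -1.0 for SESN2. Each was picked out because its effect differed between the time points by the test of that difference. By limma, the departure of MTND2P28 was not called in 12 of the alternative settings (adjusted p = 0.0527 to 0.145 there), and that of H2BU1 was not called with voom on recovered reads (adjusted p = 0.0517).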

How the results depend on the processing

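At 24 h the count of 6955 called genes ranged from 5700 to 6456 with 1 library left out. It was 6858 with the replicate block, and with equal library medians the majority turned, to 4012 higher and 3176 lower. The count by time ranged from 1276 to 2413 with 1 library left out, was 3617 with array weights and 2009 with the replicate block. The 169 genes with at least 1 log2 ranged from 131 to 200 with 1 library left out and were 169 with the block; voom on recovered reads, which does not shrink low genes, gave 1156 (851 higher, 305 lower). Deviations of same-numbered methionase and vector libraries correlated at 0.16, -0.17 and 0.16, and those of differently numbered ones at -0.42 to 0.35. With 3 libraries per group these values cannot show whether equal replicate numbers pair the libraries. The median of the translation factors turned to -0.067 with quantile normalization, and that of the mitochondrially encoded genes to -0.078 without methionase replicate 2 (0.62 without methionase replicate 1). With voom the histone median was 2.17. Depth limits most the genes near the filter, such as H1-5. The cause of these shifts was not tested.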

Other observations

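Gene structure went with direction among protein-coding genes, in classes chosen after values were seen. Of 241 genes with 1 exon, histone genes left out, 105 fell (43.6%) and 28 rose (11.6%), against 25.6% and 16.1% of 13386 protein-coding genes with an exon count. HPS6 and B3GALT6, among the largest decreases, have 1 exon, and INTS5 and LCMT2 have 2. Among the largest increases, JUN, RHOB and HSPA1B also have 1 exon. With at least 1 log2, 7 of the 241 genes rose and 3 fell, against 58 and 36 of the 13386. By length of the longest transcript, 930 of 4465 genes in the shortest class (up to 2587 bases) rose and 758 fell, while 634 of 4462 in the longest class rose and 1337 fell.

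Of 21 interferon response genes 6 fell and none rose, 28.6% called. SAMHD1, which breaks down deoxynucleotides, was among those that fell (-0.59). Of 40 proteasome subunits 10 fell and none rose, 25% called (6 fell and 3 rose without methionase replicate 3). Over all tested genes 39.2% were called, 18.1% higher and 21.1% lower. The list medians were -0.04 for interferon response and -0.03 for proteasome subunits. Of 27 NRF2 and oxidative stress genes 6 rose and 6 fell, 44.4% called (3 and 5 without methionase replicate 1). The highest single snoRNA differences were those of SNORD14E (1.83) and SNORD28 (1.76), and the lowest mitochondrial tRNA was that of TRNH (-0.69); these 3 were chosen after their values were seen.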
